A study of Mus musculus with 4 samples.

Results

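The glutathione transferases, NRF2 and a set of NRF2 target genes were followed in mouse liver soon after the liver carcinogen diethylnitrosamine (DEN). The members were picked out by gene symbol. They are every gene whose symbol names the alpha, kappa, mu, omega, pi, theta, zeta or microsomal class of glutathione transferase, with 24 genes. Symbols of pseudogenes were left out, and a transferase gene with another kind of symbol would be missed. The other 15 are named genes of NRF2 control, glutathione supply and NRF2 response. This gave 39 of the 35522 genes in the tables. The libraries came from liver tissue of strain C57BL/6, collected 24 hr after DEN, from 2 samples labelled Control and 2 labelled Dph1 KO. All 4 samples had received DEN, so a response to DEN cannot be told apart from a standing difference between the genotypes. Dph1 encodes a protein needed for the first step in making diphthamide, a modified histidine residue of the elongation factor eEF2. The sources used here give neither the promoter or cell type behind the deletion nor the age and sex of the mice. Nothing there states that the 2 libraries of a genotype are separate animals, so the p-values rest on a spread that may be technical.

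Glutathione transferases join the tripeptide glutathione to reactive electrophiles, which makes drugs, carcinogens and products of lipid peroxidation easier to excrete, and they are abundant in hepatocytes. NRF2, encoded by Nfe2l2, is a transcription factor that the adaptor KEAP1 marks for breakdown. When oxidants or electrophiles modify KEAP1, NRF2 builds up and switches on genes for glutathione synthesis, conjugation and quinone reduction through antioxidant response elements.

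The libraries held 19474596 to 21137358 reads in genes, of which 89.3% to 90.2% were uniquely matched. Dph1 itself was at 70.3 and 68.3 CPM (reads scaled to library size with TMM factors) in Control and at 17.8 and 31.5 CPM in Dph1 KO, a log2 fold change of -1.49 (SE 0.26, adjusted p = 0.0107, edgeR's quasi-likelihood test with Benjamini-Hochberg adjustment over 13303 tested genes). Residual Dph1 reads were thus present in both Dph1 KO libraries. With "rose" and "fell" used for an adjusted p under 0.05, 12.3% of tested genes were called, 4.86% as higher and 7.47% as lower in Dph1 KO. Chi-square per degree of freedom between the libraries of a genotype was 32.1 in Control and 84.3 in Dph1 KO, so the libraries of each pair differed beyond counting noise. Fold change also followed transcript GC content, with a Spearman correlation of -0.62 across 12504 protein-coding genes, which are not independent replicates and share these 4 libraries. Values after correction for GC content and length, under which 9.44% of 13093 genes were called, are therefore given beside those they change, and the plot of fold changes shows them for every tested member.

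Of the 24 glutathione transferase genes, 21 had enough reads to be tested. In Dph1 KO, 6 of them fell, 0 rose and 15 were not called. The genes that fell came from 4 classes: Gstt2 (theta), Gsta4 and Gsta1 (alpha), Gstp2 (pi), and Gstm4 and Gstm3 (mu). The median log2 fold change over the 21 tested transferases was -0.65, beside 0.041 over all tested genes, and 18 of the 21 were below 0. Both Dph1 KO libraries lay below both Control libraries for 13 of the 21, an arrangement found for 32.5% of all tested genes, and 0 lay above, an arrangement found for 34.9%. After correction for GC content and length, 5 transferases were called and the median was -0.37. DESeq2 called 9 transferases lower, beside 10.9% of 11997 genes, and 0 higher, beside 5% of genes. They were the 6 above and Gstp1 (-0.94, adjusted p = 0.00348), Gstm1 (-0.78, adjusted p = 0.0184) and Gstm2 (-0.84, adjusted p = 0.0292). In a liver, fewer cells of a type and less RNA per cell cannot be told apart.

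**Figure D1:**
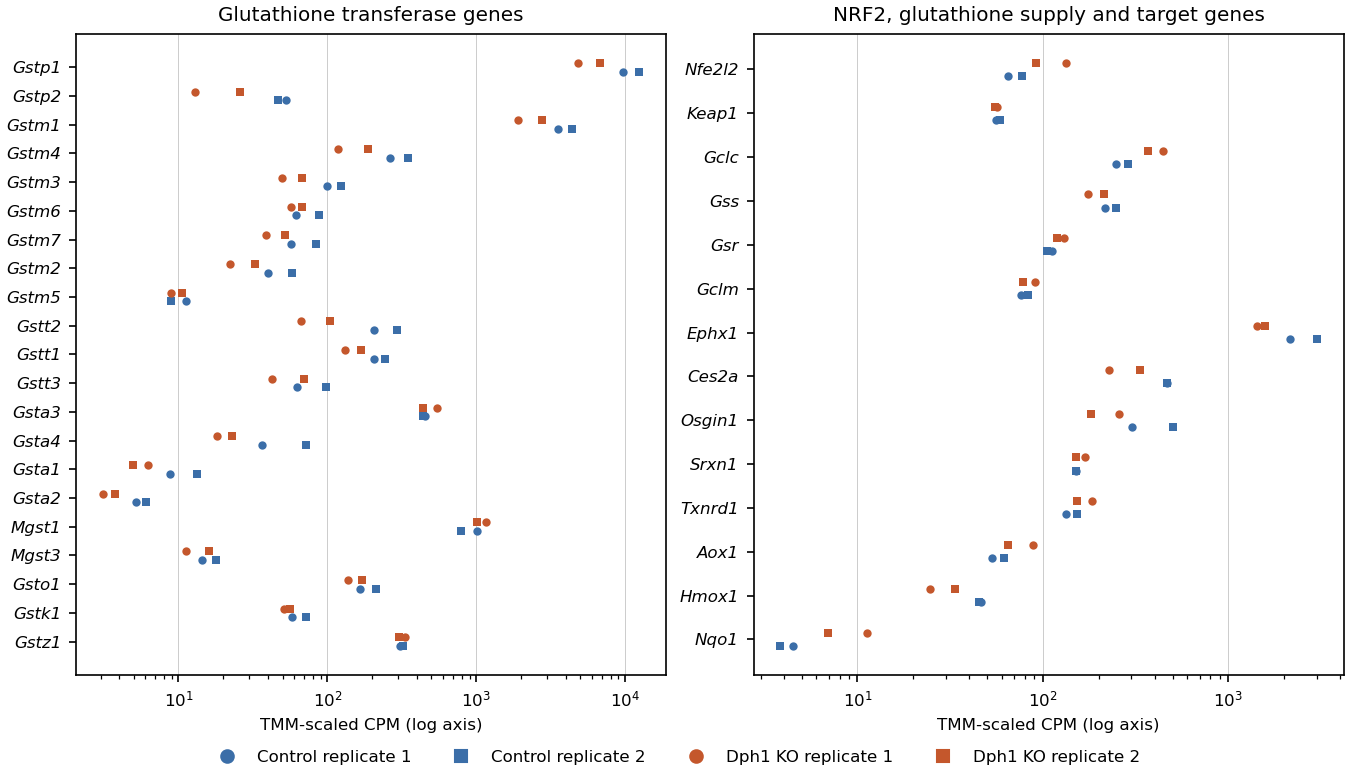
TMM-scaled CPM (log axis) of every tested member in each library, with glutathione transferases on the left and NRF2, glutathione supply and target genes on the right. Blue marks are Control and orange marks Dph1 KO, with circles for replicate 1 and squares for replicate 2. Gstt2 and Gstp2 show both Dph1 KO marks left of both Control marks, and Nqo1 shows them to the right.

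The pi class dominated these transcripts. Gstp1 (chromosome 19, 4035411 to 4037912, minus strand) is the main pi transferase of mouse liver and conjugates many electrophiles. It stood at 20396 and 23865 TPM (transcripts scaled to gene length and library) in Control and 14288 and 16105 TPM in Dph1 KO, rank 6 among all genes in both Control libraries and rank 8 in both Dph1 KO libraries. On the CPM scale it stood at 9658 and 12381 in Control and at 4841 and 6803 in Dph1 KO. The genotypes did not overlap, but the change missed the threshold, with a log2 fold change of -0.92 (SE 0.34, adjusted p = 0.0896, edgeR's quasi-likelihood test), and it was -0.37 after correction for GC content and length. Gstp1 transcripts have a GC content of 55.8%, in the most GC-rich class of genes, whose median log2 fold change was -0.56. Gstp2 (chromosome 19, 4040288 to 4042221, minus strand), the neighbouring pi gene, was at 53.0 and 46.3 CPM in Control and at 12.8 and 26.0 CPM in Dph1 KO. It was lower in both Dph1 KO libraries and lowest in Dph1 KO replicate 1. It fell by 1.35 on the log2 scale (SE 0.29, adjusted p = 0.0213), and after the GC and length correction the call held with a fall of 0.92 (adjusted p = 0.0254).

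The pi pair and the Gsta1 and Gsta2 pair are near copies, which matters because multiply matching reads are counted among total reads. The coding sequences of Gstp1 and Gstp2 were 98.1% identical, with 12 mismatches over 630 aligned bases, and only 28.9% of Gstp1 reads and 20.04% of Gstp2 reads were unique. Those of Gsta1 (chromosome 9, 78230669 to 78242683, plus strand) and Gsta2 (chromosome 9, 78331020 to 78347145, minus strand) were 97.6% identical, with 13 mismatches over 666 aligned bases. No other pair of the transferases picked out by symbol passed 84.9%, the value of Gstm2 and Gstm7. Shared reads were still present in the mu class, where unique reads made up 74.79% for Gstm2, 77.5% for Gstm3 and 82.86% for Gstm1. Genes with another kind of symbol, such as Gm3776 in the alpha cluster, were not aligned. Unique reads made up 18.97% of Gsta1 reads and 66.94% of Gsta2 reads. Whether a further copy of Gsta1 lies behind this difference was not tested. The stretches below show why short reads cannot always be assigned: they give 120 bases of coding sequence from GENCODE M21 (GRCm38), 5′ to 3′ on the coding strand, at coding positions 1 to 120 for the pi pair and 373 to 492 for the alpha pair. Capitals mark the bases that differ within a pair, 6 in the pi stretch and 5 in the alpha stretch.
Gstp1: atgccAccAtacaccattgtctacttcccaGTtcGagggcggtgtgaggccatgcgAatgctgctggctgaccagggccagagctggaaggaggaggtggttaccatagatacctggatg
Gstp2: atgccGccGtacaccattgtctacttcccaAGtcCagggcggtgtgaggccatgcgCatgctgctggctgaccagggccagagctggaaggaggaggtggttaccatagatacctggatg
Gsta1: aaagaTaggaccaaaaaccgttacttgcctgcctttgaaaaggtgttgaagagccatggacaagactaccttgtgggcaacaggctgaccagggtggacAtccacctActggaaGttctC
Gsta2: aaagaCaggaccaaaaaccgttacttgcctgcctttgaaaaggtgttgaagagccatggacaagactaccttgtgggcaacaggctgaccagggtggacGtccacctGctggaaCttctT

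Uniquely matched reads were tested as a second measure of these copies, with 12.3% of 13079 genes called. Gstp2 kept its call, with a log2 fold change of -1.22 (adjusted p = 0.0306, edgeR's quasi-likelihood test). That call rested on 206 and 144 unique reads in the Control libraries against 74 and 113 in Dph1 KO. Unique reads of its near copy Gstp1 were 51718 and 63882 in Control against 33889 and 42152 in Dph1 KO. Gstp1 had a log2 fold change of -0.93 on unique reads and again was not called (adjusted p = 0.0640). Gsta1 had 35 and 44 unique reads in the Control libraries against 28 and 18 in Dph1 KO, and lost its call on them, at -1.11 (adjusted p = 0.0684). The values of these near copies are uncertain at least to that extent. Most Gstp2 reads were not unique, and whether its values are independent of those of Gstp1 was not tested.

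The alpha class takes aldehydes and peroxides formed from lipids, and its genes did not move as one. Gsta4 (chromosome 9, 78191966 to 78209349), whose enzyme conjugates the lipid aldehyde 4-hydroxynonenal, was at 36.5 and 72.1 CPM in Control and 18.1 and 22.9 CPM in Dph1 KO. Both Dph1 KO libraries were below both Control libraries, and the Control pair was wide. Gsta4 fell by 1.41 on the log2 scale (SE 0.30, adjusted p = 0.0200), and the fall was 1.31 after the GC and length correction (adjusted p = 0.0202). The call ended without Control replicate 2, at -0.83 (adjusted p = 0.147). Gsta1 was at 8.81 and 13.4 CPM in Control and 6.23 and 4.99 CPM in Dph1 KO, without overlap, and fell by 0.98 (SE 0.26, adjusted p = 0.0402). Without Control replicate 2 it was not called, at -0.65 (adjusted p = 0.363), nor without TMM scaling, at -0.71 (adjusted p = 0.0797). Gsta2 was low in all libraries, from 3.09 to 6.06 CPM, and its log2 fold change of -0.72 missed the threshold (adjusted p = 0.0910). Gsta3 was the leading alpha gene by TPM, with a mean of 384 TPM in Control and 551 TPM in Dph1 KO. On the CPM scale, where TMM scaling applies, Gsta3 was at 451 and 440 in Control and at 545 and 440 in Dph1 KO. These ranges overlapped, its log2 fold change was 0.14 (SE 0.26, adjusted p = 0.714), and the sign turned to -0.28 after the GC and length correction.

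The mu class lies as a run of genes on chromosome 3, between 107895854 and 108044859. Gstm4 was at 264 and 347 CPM in Control and 118 and 188 CPM in Dph1 KO, and it fell by 0.99 on the log2 scale (SE 0.28, adjusted p = 0.0465). Gstm3 was at 99.97 and 124 CPM in Control and 49.4 and 67.7 CPM in Dph1 KO, and it fell by 0.94 (SE 0.23, adjusted p = 0.0331). The genotypes did not overlap for either gene, and Dph1 KO replicate 1 was the lowest library for both. After the GC and length correction Gstm3 stayed called at -0.66 (adjusted p = 0.0400), and Gstm4 was not called at -0.74 (adjusted p = 0.0533). Without Control replicate 2 neither was called, with log2 fold changes of -0.77 for Gstm3 (adjusted p = 0.246) and -0.79 for Gstm4 (adjusted p = 0.311), and the calls of both also ended without Control replicate 1 (adjusted p = 0.0527 and 0.0777). The Gstm4 call ended as well without Dph1 KO replicate 1, at -0.67 (adjusted p = 0.0709).

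Gstm1, the most abundant mu gene and a main conjugating enzyme of hepatocytes, was at 3509 and 4376 CPM in Control and 1907 and 2749 CPM in Dph1 KO. The genotypes did not overlap, yet its log2 fold change of -0.76 (SE 0.32) was not past the threshold (adjusted p = 0.122), and it was -0.44 after the GC and length correction. Gstm2 and Gstm7 also had both Dph1 KO libraries below both Control libraries, with log2 fold changes of -0.82 (adjusted p = 0.0563) and -0.65 (adjusted p = 0.0965), and corrected values of -0.61 and -0.38. At the other end of the class, Gstm6 (-0.26) and Gstm5 (-0.05) overlapped between genotypes. The range within the mu class therefore ran from -0.99 to -0.05, and the members with the most negative and the least negative values lie in the same run of genes.

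The theta class uses a catalytic serine and acts on small halogenated compounds and sulfate esters. Gstt2 (chromosome 10, 75831845 to 75834881) had the most negative fold change of all tested members. It was at 207 and 293 CPM in Control and 66.5 and 104 CPM in Dph1 KO, so that the highest Dph1 KO library was well below the lowest Control library. Gstt2 fell by 1.55 on the log2 scale, 2.93-fold (SE 0.29, adjusted p = 0.0126), and by 1.52 after the GC and length correction (adjusted p = 0.00710). Its transcripts have a GC content of 50.0%, in the middle class of genes, whose median log2 fold change was 0.066. Gstt1, in the same cluster, was at 206 and 243 CPM in Control and 132 and 169 CPM in Dph1 KO, without overlap. Its log2 fold change of -0.58 was not called (adjusted p = 0.119) and was -0.14 after the correction. Gstt3 overlapped between genotypes, at -0.51 (adjusted p = 0.227), and was -0.33 after the correction.

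**Figure D2:**
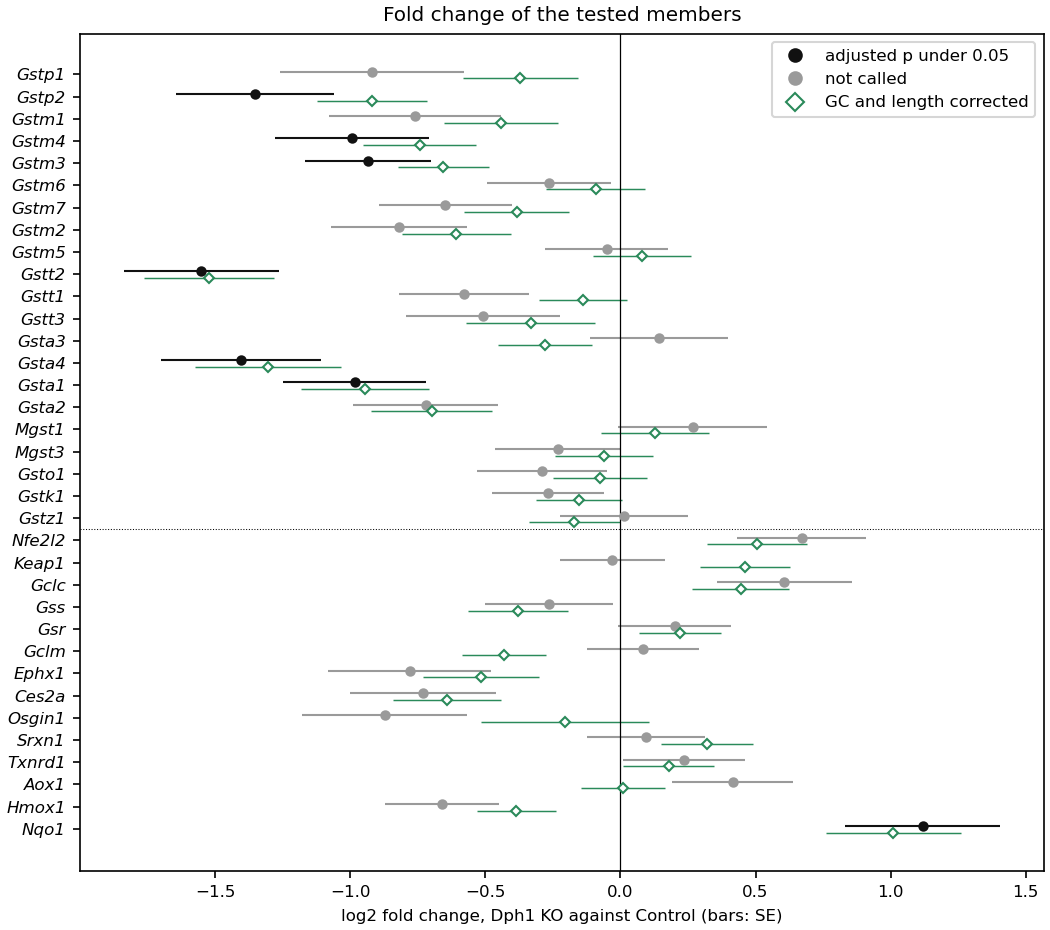
Log2 fold change of Dph1 KO against Control for each tested member, with bars for the SE. Black marks were called at an adjusted p under 0.05, grey marks were not, and open green diamonds give the value after correction for GC content and length. Transferases are above the dotted line, where Gstt2 has the most negative value (-1.55), and Nqo1 at the bottom has the highest (1.12).

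The remaining classes showed no call. The microsomal enzyme MGST1 sits in membranes and also reduces lipid peroxides. Mgst1 was at 1007 and 786 CPM in Control and 1155 and 1003 CPM in Dph1 KO, overlapping, with a log2 fold change of 0.27 (adjusted p = 0.511), or 0.13 after the GC and length correction. Mgst3 was at -0.23 and Gstk1, a mitochondrial and peroxisomal transferase, at -0.27. Gsto1, whose omega enzyme acts as a thiol transferase and reductase, was at 165 and 211 CPM in Control and 138 and 170 CPM in Dph1 KO (-0.29, adjusted p = 0.403), with overlap. Gstz1, whose enzyme acts on maleylacetoacetate in tyrosine catabolism, was at 306 and 324 CPM in Control and 332 and 302 CPM in Dph1 KO (0.01, adjusted p = 0.975), again with overlap. The signs of Mgst3, Gstk1, Gsto1 and Gstz1 turned under at least one other scaling or correction. Mgst2 had 3 to 6 reads in each library, Gsto2 1 to 7 and Gstt4 0, and none of these 3 was tested.

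Summed over all 24 genes on the TPM scale, transferase transcripts were 28650 and 32536 TPM in Control and 22481 and 23892 TPM in Dph1 KO, so that Dph1 KO had on average 75.8% of the Control level. That was 2.86% and 3.25% of all TPM in Control and 2.25% and 2.39% in Dph1 KO. On the TPM scale much of the difference lay in Gstp1, which made up 71.2% and 73.4% of transferase TPM in Control and 63.6% and 67.4% in Dph1 KO. Without Gstp1 the sums were 8253 and 8671 TPM in Control and 8193 and 7787 TPM in Dph1 KO, on average 94.4% of the Control level. By class, the average in Dph1 KO was 68.1% of Control for theta, 68.6% for pi and 76.4% for mu, and 124% for alpha, carried by Gsta3, and 156% for microsomal, carried by Mgst1. TPM carry no TMM factor, and on that scale the median log2 fold change of all tested genes was 0.23, so these percentages stand higher than the CPM values. With 2 libraries against 2, an exact two-sided permutation test of a single sum cannot go below p = 0.333.

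**Figure D3:**
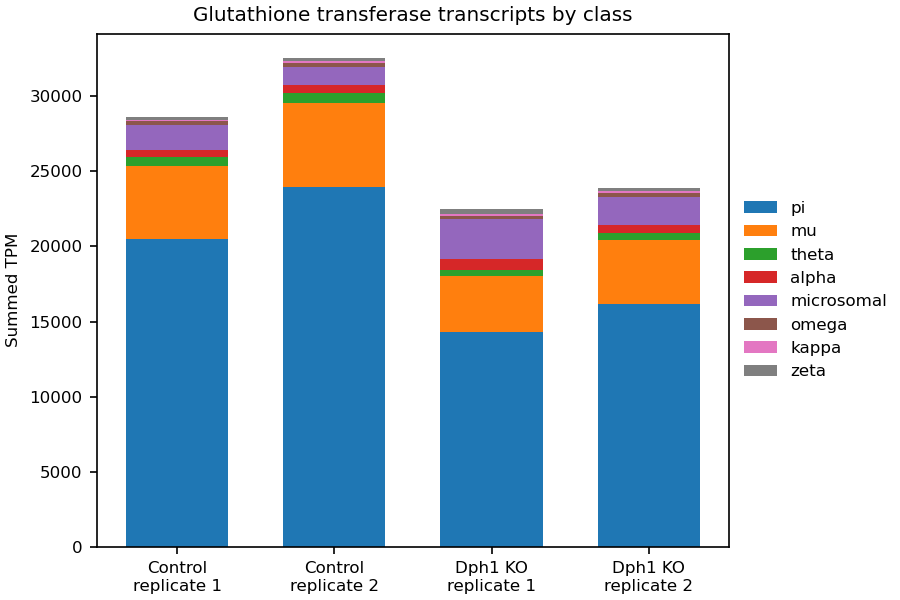
Summed TPM of the glutathione transferase classes in each library, as stacked bars that start at 0, with classes by colour. The pi class fills most of each bar. The Control bars reach 28650 and 32536 TPM and the Dph1 KO bars 22481 and 23892 TPM.

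Of the 15 genes of NRF2 control, glutathione supply and NRF2 response, 14 were tested, and their fold changes lay on both sides of 0. In Dph1 KO 1 gene rose, 0 fell and 13 were not called, with a median log2 fold change of 0.089 beside 0.041 over all tested genes. Both Dph1 KO libraries lay above both Control libraries for 6 of the 14 and below them for 5, and 3 overlapped. The shares over all tested genes were 34.9% above, 32.5% below, 4.86% called higher and 7.47% called lower, and the counts of these 14 members were near them. Slc7a11, the cystine transporter, had 0 to 2 reads in each library and was not tested.

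Nfe2l2, the gene of NRF2 itself, was at 65.1 and 76.9 CPM in Control and 134 and 92.1 CPM in Dph1 KO. Both Dph1 KO libraries were above both Control libraries, and Dph1 KO replicate 1 was the highest. The log2 fold change of 0.67 (SE 0.24) missed the threshold in edgeR's quasi-likelihood test (adjusted p = 0.0817). It was called without TMM scaling, at 0.95 (adjusted p = 0.00536), and on exon reads, at 0.77 (adjusted p = 0.0458). Without TMM scaling 3423 genes were called, 77.0% of them higher, and the median of all tested genes was 0.30. On exon reads 1888 genes were called, beside 1640 in the main test. Without Dph1 KO replicate 2 the log2 fold change of Nfe2l2 was 0.93. After the GC and length correction it was 0.51 and not called (adjusted p = 0.113). Keap1 was level at 55.7 and 58.5 CPM in Control and 56.4 and 55.4 CPM in Dph1 KO, with a log2 fold change of -0.03 (SE 0.19, adjusted p = 0.927). Keap1 transcripts are GC-rich (58.0%), and the GC and length correction moved it to 0.46, which was not called (adjusted p = 0.112).

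Glutathione is made by glutamate-cysteine ligase, with the catalytic subunit Gclc and the modifier Gclm, followed by glutathione synthetase (Gss), and glutathione reductase (Gsr) restores it after oxidation. None of these 4 genes was called. Gclc was at 247 and 287 CPM in Control and 442 and 370 CPM in Dph1 KO, without overlap, with a log2 fold change of 0.61 (SE 0.25, adjusted p = 0.116). Its partner Gclm was at 75.8 and 82.9 CPM in Control and 90.3 and 77.8 CPM in Dph1 KO, with overlap (0.08, adjusted p = 0.800), and at -0.43 after the GC and length correction. Gsr was at 112 and 105 CPM in Control and 130 and 120 CPM in Dph1 KO (0.20, adjusted p = 0.512), with Dph1 KO above Control. Gss was at 216 and 249 CPM in Control and 174 and 213 CPM in Dph1 KO (-0.26, adjusted p = 0.442), with Dph1 KO below Control.

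Among the target genes, Nqo1 rose. Nqo1 encodes a quinone reductase that is widely used as a readout of NRF2. It was at 4.51 and 3.84 CPM in Control and 11.2 and 6.91 CPM in Dph1 KO, which rest on 83 and 69 reads in the Control libraries against 265 and 151 in Dph1 KO. Both Dph1 KO libraries were above both Control libraries, and Dph1 KO replicate 1 was the higher. Nqo1 rose by 1.12 on the log2 scale, 2.17-fold (SE 0.29, adjusted p = 0.0353, edgeR's quasi-likelihood test), and by 1.01 after the GC and length correction (adjusted p = 0.0360). The call ended without Control replicate 2, at 1.01 (adjusted p = 0.147), and without Dph1 KO replicate 1, at 0.75 (adjusted p = 0.0968).

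Other targets lay on both sides of 0. Ephx1, the microsomal epoxide hydrolase, was at 2159 and 3003 CPM in Control and 1431 and 1576 CPM in Dph1 KO (-0.78, adjusted p = 0.100). Ces2a, a carboxylesterase, was at 467 and 467 CPM in Control and 227 and 335 CPM in Dph1 KO (-0.73, adjusted p = 0.0892). Osgin1, an oxidative stress-induced growth inhibitor, was at 302 and 502 CPM in Control and 257 and 182 CPM in Dph1 KO (-0.87, adjusted p = 0.0778). These 3 genes and Hmox1, the haem oxygenase (-0.66, adjusted p = 0.0625), had both Dph1 KO libraries below both Control libraries without a call. DESeq2 called 4 of the 14 genes as lower (Ephx1, Ces2a, Osgin1 and Hmox1) and 2 as higher (Nqo1 and Gclc), beside 10.9% and 5% of the 11997 genes it gave an adjusted p. The GC and length correction brought Osgin1, the most GC-rich member at 59.2%, from -0.87 to -0.20, Ephx1 to -0.52 and Hmox1 to -0.39. Srxn1, which repairs oxidised peroxiredoxins, was at 151 and 150 CPM in Control and 170 and 151 CPM in Dph1 KO (0.09, adjusted p = 0.785), and at 0.32 after the correction. Txnrd1, the cytosolic thioredoxin reductase, was at 132 and 153 CPM in Control and 184 and 152 CPM in Dph1 KO (0.23, adjusted p = 0.479), and Aox1, an aldehyde oxidase, had a log2 fold change of 0.41 (adjusted p = 0.209), which the correction brought to 0.0082. Classical NRF2 targets thus included genes on both sides, with Nqo1 higher and Hmox1 lower in both Dph1 KO libraries.

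Promoter sequence was searched for the core of the antioxidant response element, TGACNNNGC, on both strands from 250 bases before to 50 after the start (RefSeq, GRCm38.p6). Windows were found for 34 members, and 8 of them (23.5%) held a match, beside 14.0% of 27025 genes. The matches were in Gclm, Gsta3, Gstm5, Gstm7, Mgst1, Nfe2l2, Srxn1 and Txnrd1. None of the 5 called members with a window (Gsta1, Gstm3, Gstm4, Gstp2 and Nqo1) held a match in it, which says only that these letters are not in that window. Gstt2, Gsta4, Gsr, Gclc and Hmox1 had no window. The 3 stretches below show the matches of NRF2's own gene, of the ligase modifier and of thioredoxin reductase, read in the direction of the gene, with the match in capitals. They lie at chr2:75704880-75704913 (minus strand gene), chr3:122245408-122245446 and chr10:82859099-82859137 (plus strand genes), 240, 134 and 92 bases before the start, and in Gclm and Txnrd1 the match reads on the opposite strand.
Nfe2l2: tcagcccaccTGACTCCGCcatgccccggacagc
Gclm: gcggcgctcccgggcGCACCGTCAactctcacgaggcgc
Txnrd1: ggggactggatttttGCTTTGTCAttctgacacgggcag
None of these 3 genes was called between the genotypes, at 0.67 for Nfe2l2, 0.08 for Gclm and 0.23 for Txnrd1. A match is a description of the sequence and not evidence of binding.

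The members differed among themselves in transcript GC content. The 5 classes of protein-coding genes from low to high GC had median log2 fold changes of 0.48, 0.29, 0.066, -0.23 and -0.56. Gstt2 (50.0% GC), Gsta4 (49.2%) and Gsta1 (47.5%) were lower in Dph1 KO although their GC classes had medians above 0, and their corrected values were -1.52, -1.31 and -0.95. Gstp1, Gstt1 and Osgin1, at 54.9% to 59.2% GC, moved toward 0, to -0.37, -0.14 and -0.20. Nqo1 (46.8%) and Nfe2l2 (46.8%) lie in a class with a median of 0.29, and their corrected values were 1.01 and 0.51.

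**Figure D4:**
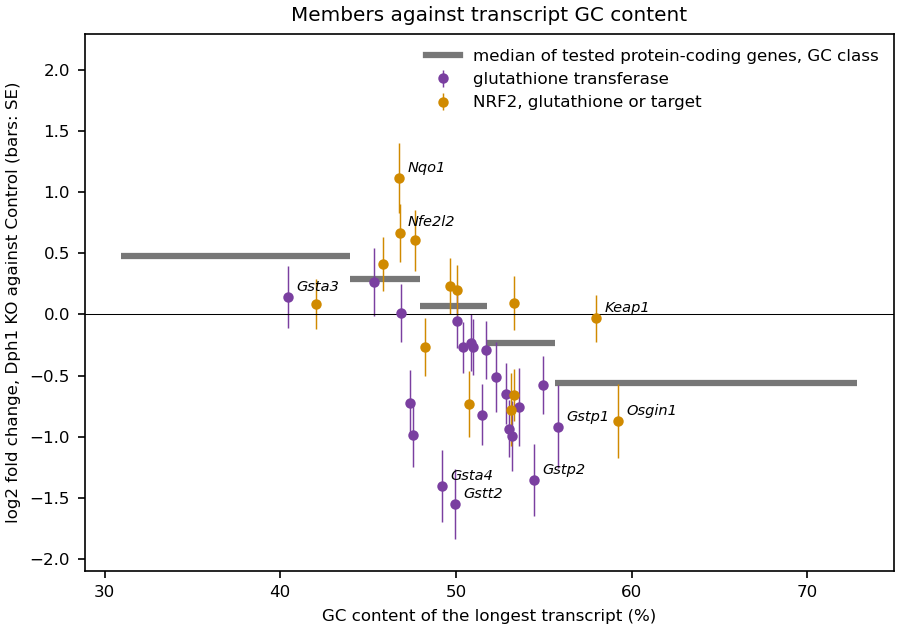
Log2 fold change of Dph1 KO against Control (bars show the SE) against the GC content of the longest transcript in percent, for tested transferases in purple and the other tested members in gold. Grey lines give the median of tested protein-coding genes in 5 GC classes, from 0.48 to -0.56. Gstt2, Gsta4 and Gstp2 lie below the grey lines and Nqo1 above them.

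The surrounding pathways were described with 5 lists of 90 genes, of which 82 were tested, with 7 higher, 5 lower and 70 not called, and a median log2 fold change of -0.09. Over all tested genes 4.86% were called higher and 7.47% lower, and the counts of each list below stand beside these shares. Among 11 tested genes that regulate NRF2, 0 were called. The most abundant were Sqstm1, an autophagy receptor that binds KEAP1 (-0.37), and Dpp3, a peptidase that also binds KEAP1 (-0.59). Among 25 tested NRF2 targets outside the members, 2 rose and 2 fell. Abcc2, the canalicular exporter of glutathione conjugates, was at 222 and 256 CPM in Control and 611 and 415 CPM in Dph1 KO (1.10, SE 0.28, adjusted p = 0.0331, not called after the GC and length correction). Ptgr1, a reductase of prostaglandins and lipid aldehydes, rose by 1.10 (SE 0.26, adjusted p = 0.0271). The haem transporter Slc48a1 fell by 1.31 (SE 0.26, adjusted p = 0.0175) and the aldo-keto reductase Akr1b8 by 1.07 (SE 0.26, adjusted p = 0.0312).

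Among 23 tested genes of glutathione breakdown and use, 2 fell and 0 rose. They were the aminoacylases Acy1 (-0.84, adjusted p = 0.0407) and Acy3 (-0.98, adjusted p = 0.0419), and neither was called after the GC and length correction. Among 10 tested genes of cysteine and methionine supply, 2 rose and 0 fell. Cth, which makes cysteine from cystathionine, was at 53.4 and 55.2 CPM in Control and 98.5 and 90.3 CPM in Dph1 KO and rose by 0.80 (SE 0.20, adjusted p = 0.0338). Slc3a1, a subunit of a cystine transporter, rose by 1.03 (SE 0.21, adjusted p = 0.0173), and both stayed called after the correction. Among 13 tested genes of the xenobiotic receptors CAR, PXR and AhR and their targets, 3 rose, with Ahr itself at 1.03 (adjusted p = 0.0191), Cyp2b9 at 2.58 (adjusted p = 0.0141) and Cyp3a11 at 1.09 (adjusted p = 0.0383, not called after the correction), and 1 fell, the P450 reductase gene Por (-1.28, adjusted p = 0.0271, not called after the correction). The receptors induce several transferases, and their targets here lay on both sides of 0.

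Of 75 tested markers in 10 lists of cell types and liver zones, 12 were called (16%), 3 higher and 9 lower, beside 12.3% of all tested genes. After the GC and length correction 9 were called, beside 9.44% of genes. Of 9 tested hepatocyte markers 0 were called, with summed levels of 62297 and 75781 CPM in Control and 64444 and 67150 CPM in Dph1 KO. Bile duct (0 of 7) and endothelial markers (0 of 10) were also not called, though 1 bile duct marker was called higher after the correction. Of 10 tested markers of stellate cells and fibroblasts 3 fell, and after the correction 1 was called lower. That list summed to 453 and 497 CPM in Control and 325 and 355 CPM in Dph1 KO. Of 9 Kupffer cell and macrophage markers 1 fell, Cd68, with summed levels of 379 and 400 CPM in Control and 227 and 414 CPM in Dph1 KO. The neutrophil list summed to 215 and 200 CPM in Control and 100 and 604 CPM in Dph1 KO, nearly all of it Lcn2, and 0 of 4 tested genes were called, while the defining gene Ly6g was at 0 in 3 libraries and at 0.056 CPM in the other. Among T, NK and B cell markers 1 of 4 tested genes fell and was not called after the correction. Among erythroid markers 1 of 3 rose and 1 fell. Pericentral hepatocyte markers, the zone where many transferases are richest, had 2 genes higher (Rgn and Oat) and 2 lower (Glul and Rhbg) of 10, and periportal markers 1 lower of 9. After the correction 2 pericentral markers were called higher and 1 lower. Reads of Y-linked genes were present in all 4 libraries. Of 4 tested sex chromosome genes 2 rose but were not called after the GC and length correction. Of 10 liver genes known to be higher in males, a list that includes Gstp1, 3 rose and 0 fell. That list summed to 16433 and 18608 CPM in Control and 9890 and 10948 CPM in Dph1 KO. Gstp1 made up a large part of those sums. Of 3 tested genes known to be higher in females 2 rose, among them Cyp2b9 of the xenobiotic receptor list, and 1 fell. The 10 genes of that female list summed to only 5.82 and 18.9 CPM in Control and 65.4 and 41.4 CPM in Dph1 KO. The part of these markers in the transferase values was not tested.

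Dph1 KO replicate 1 was the more distant of the Dph1 KO pair for most members. It was below Dph1 KO replicate 2 for 17 of the 21 tested transferases and above it for 10 of the 14 other tested members. Without Control replicate 2, 2 transferases were called lower (Gstt2 and Gstp2) and 0 of the other members higher, in a setting that called 2.5% of all tested genes lower and 1.32% higher. Without Dph1 KO replicate 2, 13 transferases were called lower, and 4 of the other members higher and 3 lower, beside 20.4% of all tested genes lower and 18.9% higher, where a library left alone is assumed to vary as the Control pair does. Intron reads made up 8.64% and 6.24% of gene reads in the Control libraries, against 10.98% and 8.26% in Dph1 KO. On exon reads alone 7 transferases were called lower, and 2 of the other members higher and 1 lower, with 1888 of all genes called. The cause of the difference in intron reads was not tested.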

How the data were processed

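RNA of frozen liver tissue was prepared as 4 libraries with a stranded mRNA kit, per the labels' protocols. Reads were placed on GRCm38 (mm10), per the submitters' processing notes, with the aligner, the counter and the division of multiply matching reads not given in the sources used here. Per the file headers, the authors deposited whole-number read counts per gene, together with TPM and RPKM values. The deposited ratios, each a fraction of a gene's reads, and the RPKM values were not used. Total gene reads were the main measure.

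After filterByExpr on genotype, counts were scaled by TMM, with factors of 0.945 and 0.884 for Control against 1.16 and 1.04 for Dph1 KO, and compared with genotype as the only term by edgeR 4.0.16 (glmQLFit, glmQLFTest) in R 4.3.3. Benjamini-Hochberg adjustment ran over 13303 genes, with a threshold of 0.05. The SE is the log2 fold change divided by the square root of F, and the biological coefficient of variation was 18.4%. Alternatives were DESeq2 1.42.0 and its size factors in edgeR, no TMM, no filter, unique or exon reads, limma-trend (limma 3.58.1) on log2(TPM + 1), each library left out, and a smooth trend on GC content and length per library (mgcv 1.9.3, basis size 6) as an offset. GC content was read from each longest transcript in GENCODE M21, found for all 39 members. Coding sequences were aligned with Biopython 1.88. The test was checked on simulated counts.

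The members and lists were chosen with earlier results of these data known. The named genes are members past the threshold or with a mean of at least 100 CPM, Nfe2l2, Keap1 and Dph1, and, of each pathway list, up to 3 called genes by lowest p, or else the 2 most abundant. Of marker lists, called genes were counted and up to 2 could be named. Other members, and Abcc2, Cyp3a11 and the further marker genes named, were chosen after their values were seen. The lists hold 209 entries in 5 pathway and 13 marker lists, of which 8 did not match the tables.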

Additional observations from a re-analysis of the deposited data

How the results depend on the processing

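Among the 6 transferases that fell and Nqo1, which rose, all kept their direction in the 12 alternatives, and Gstt2 and Gstp2 lost their call in limma-trend alone. These alternatives do not show that the Gstp2 values are independent of its far more abundant near copy Gstp1. The transferases called lower numbered 2 to 13 with a library left out, 9 in DESeq2, 8 with no filter and 0 in limma-trend, where 3 of all genes were called. The other members called higher numbered 4 without TMM, 2 on exon reads, 2 in DESeq2, 0 in limma-trend and 0 to 4 with a library left out. Those called lower numbered 1 on exon reads, 4 in DESeq2 and 0 to 3 with a library left out. Pathway genes called higher numbered 16 without TMM, 0 in limma-trend and 1 to 14 with a library left out. Those called lower numbered 10 with no filter, 8 on exon reads, 3 after the GC and length correction, 12 in DESeq2, 0 in limma-trend and 0 to 23 with a library left out. Over all genes, 3423 were called without TMM, 77.0% of them higher beside 39.4% in the main test, and 528 to 5405 with a library left out, fewest without Control replicate 2 and most without Dph1 KO replicate 2. Leaving out TMM moved the median of all genes by 0.26 and limma-trend on log2(TPM + 1) by 0.19. Dph1 was at -1.20 in limma-trend (adjusted p = 0.192). The median log2 fold change of transferases was -0.25 in limma-trend, and that of the other members 0.36 without TMM and 0.46 in limma-trend. The transferase median was -0.39 without TMM, beside 0.30 over all genes, and in limma-trend it stood beside 0.23.

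Signs turned for uncalled members only. The GC and length correction turned Gsta3 (-0.28), Gstm5 (0.079), Gstz1 (-0.17), Keap1 (0.46) and Gclm (-0.43). Limma-trend turned Gstk1 (0.13), Mgst3 (0.13), Gstm5 (0.33), Gstm6 (0.12), Gsto1 (0.10), Keap1 (0.34) and Gss (0.096). Leaving out TMM turned Mgst3 (0.023), Gstm5 (0.20) and Keap1 (0.23). Exon reads turned Gstz1 (-0.014) and Keap1 (0.0047), DESeq2's size factors Gstz1 (-0.018) and DESeq2 Gstz1 (-0.0072). With a library left out, log2 fold changes ran from -0.49 to 0.029 for Mgst3, -0.21 to 0.12 for Gstm5, -0.50 to 0.0059 for Gstm6, -0.034 to 0.096 for Gstz1, -0.072 to 0.0043 for Keap1 and -0.0025 to 0.20 for Gclm. The cause of these changes was not tested. No paired analysis was possible because the labels give no replicate numbers, and the numbers used here follow accession order and only name the samples. With 2 libraries a genotype, 28 of the 35 tested members were not called, which does not show that they did not differ.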

Other observations

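Genes inside or next to the transferase clusters were examined after the members' values were seen, within 100 kb of the theta, pi, alpha and mu clusters. Genes inside a cluster that were not picked out by symbol count as neighbours here, so these counts may include transferase genes. One such gene is Gm3776 in the alpha cluster (-0.68, adjusted p = 0.289, edgeR's quasi-likelihood test). Near the theta cluster on chromosome 10, 3 of 6 tested neighbours fell, and Derl3, a gene of endoplasmic reticulum-associated degradation, was at 20.1 and 20.9 CPM in Control and 1.57 and 2.24 CPM in Dph1 KO. Derl3 fell by 3.43 on the log2 scale (SE 0.25, adjusted p = 3.01e-05, edgeR's quasi-likelihood test with Benjamini-Hochberg adjustment), more than any tested transferase. Smarcb1 (-0.92, adjusted p = 0.0270) and Mif (-1.40, adjusted p = 0.0218) also fell, and Mif was not called after the GC and length correction, which left 2 of the 6 called. Near the pi cluster 4 of 10 tested neighbours fell, of which 1 stayed called after the correction, near the alpha cluster 2 of 5, of which 1 stayed called, the F-box gene Fbxo9 (-1.17, adjusted p = 0.00837), and near the mu cluster 0 of 4. No tested neighbour of the 4 clusters rose. These counts stand beside the 7.47% of all tested genes that fell, and neighbours of one cluster are not independent of each other.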
